A study of Mus musculus with 24 samples.

Results

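Granulocyte monocyte progenitors (GMP) given the fusion oncogene NUP98-HOXA9 were compared with GMP given a GFP vector alone. The comparison takes the 3 arrays titled NHA9-GMP and the 3 titled GMP GFP, 6 of the 24 arrays of the study, and every probe set on them that carried 1 gene symbol. All cells came from C57BL/6 mice. In both groups cells positive for GFP were taken 36 hours after spinoculation, a spin infection, and their total RNA was amplified and hybridised to Affymetrix Mouse Genome 430A 2.0 arrays. The vector arm thus shares the infection, the culture and the GFP marker with the oncogene arm. The other arrays hold GMP with MOZ-TIF2 (4 arrays) or AML1-ETO (4) at the same time point, sorted normal GMP (4), sorted normal LSK cells (3), which contain the blood stem cells, and leukemic GMP from a MOZ-TIF2 leukemia (3). The design text asks which genes each oncogene changes early. Nothing in the labels tells if replicates came from separate mice, cultures or infections, so the p-values here reflect sample-to-sample spread that may be technical. In bulk RNA of this kind, fewer cells of a type and less RNA per cell cannot be told apart.

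NUP98-HOXA9 joins the phenylalanine-glycine repeats of a nuclear pore protein to the DNA-binding homeodomain of HOXA9, and the fusion is found in human acute myeloid leukemia. HOXA9 normally binds DNA with PBX and MEIS partners, is high in blood stem cells and early progenitors, and is switched down as myeloid cells mature. GMP normally give rise to neutrophils and monocytes and have little capacity for self-renewal.

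Levels are given on the log2 scale of the deposited GCRMA estimates, array by array. The design text puts background at a linear value of 60, which is 5.91 on the log2 scale, and probe sets over it on at least 2 arrays of either group were tested with limma. A gene is called here when at least 1 of its probe sets has a Benjamini-Hochberg adjusted p under 0.05.

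One array stood apart. On the first principal component of the 6 arrays, which held 45.7% of the variance, NHA9 3 lay at 39.3 while the other arrays lay between −15.5 and −2.23. On the second, with 29.9%, NHA9 1 and NHA9 2 lay at 18.3 and 19.7, and GFP 1, GFP 2 and GFP 3 at −11.7, −20.1 and −2.74. NHA9 3 is also the only one of the 6 whose file name lacks the tag A. Its difference between the 3′ and 5′ Gapdh control probe sets was 2.58, near the 2.71 of GFP 3, against 3.41 to 4.24 on the rest. The file names of NHA9 3 and GFP 3 start with a letter and those of the rest with a number. The part of NHA9 3 in the results was not tested beyond leaving it out. The array medians and the share of probe sets over 60 were close, at 5.68 to 5.73 and 46.8% to 47.3%.

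Of 6921 genes tested, 18 were called (0.260%), 17 higher with NUP98-HOXA9 (0.246%) and 1 lower (0.0144%). These genes were read by 20 of the 22 called probe sets (0.200% of 10981, 21 higher at 0.191% and 1 lower at 0.00911%). The other called probe sets were 1 shared by Pirb, Pira2 and Pira1, inhibitory and activating receptors of myeloid cells, which lay 1.36 higher (SE 0.17, adjusted p = 0.0283 in limma), and 1 with no gene symbol. At an unadjusted p under 0.05 there were 1154 probe sets (10.5%), 901 of them higher (8.21%) and 253 lower (2.30%). All 18 genes had groups that did not overlap, on the same arrays that chose them, so this adds no support. Over all 6919 genes read by 1 probe set each, 15.0% were higher and 3.73% lower without overlap. In 7 of the 18 every GFP array lay under 60, so that only a lower bound on the fold can be given.

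Most calls needed nearly all of the arrays. Leaving out NHA9 1, NHA9 2 or GFP 3 gave 1 call, and leaving out GFP 1 or GFP 2 gave 2. Without GFP 2, 1 of the 18 genes was still called (Hoxa5), and the second call was Gpnmb. Leaving out NHA9 3 gave 196, 81 higher (0.738%) and 115 lower (1.05%), and all 22 called probe sets were among them. Of the 115 lower ones, 88 had NHA9 3 on the other side of the GFP mean, and of the 81 higher ones 1 had. With the file name tag as a factor over all 24 arrays, 13 probe sets and 5 of the 18 genes were called (Hoxa5, Cd28, Hoxa9, Ckb and Zdhhc14). Hoxa5 was the only gene called in all 6 fits that left out an array.

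**Figure D1:**
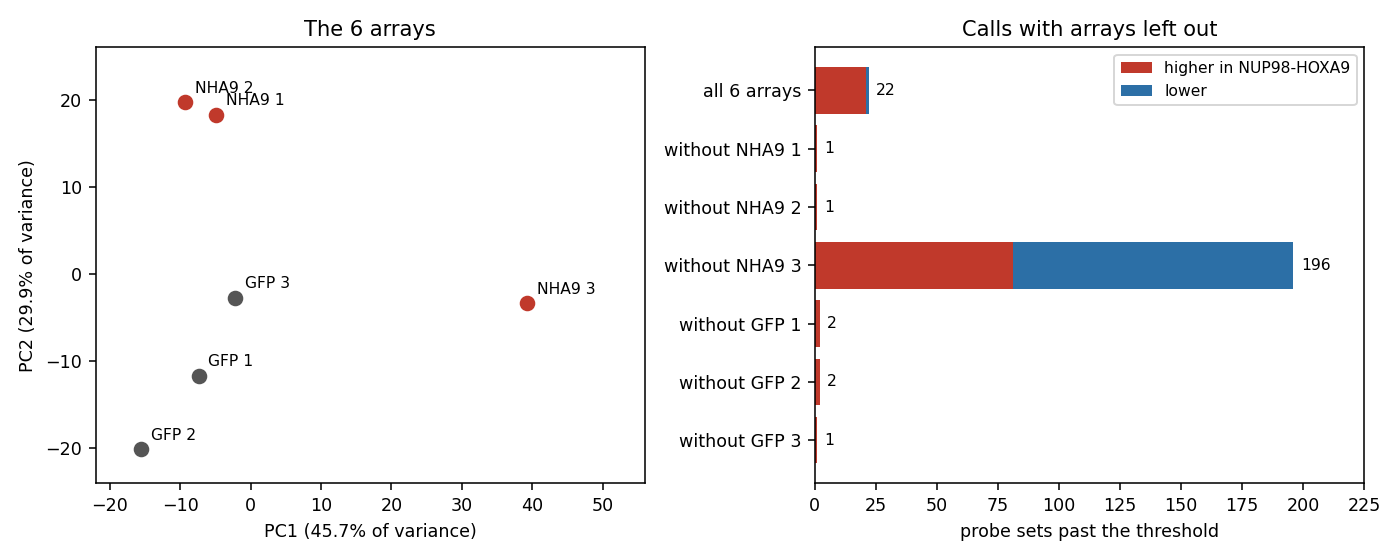
Left, the 6 arrays on the first and second principal components of the log2 values, with NHA9 3 at 39.3 on the first. Right, the number of probe sets past an adjusted p of 0.05 in limma with all 6 arrays and with each array left out, split into higher and lower with NUP98-HOXA9: 22 with all arrays, 196 without NHA9 3 and 1 or 2 otherwise.

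**Figure D2:**
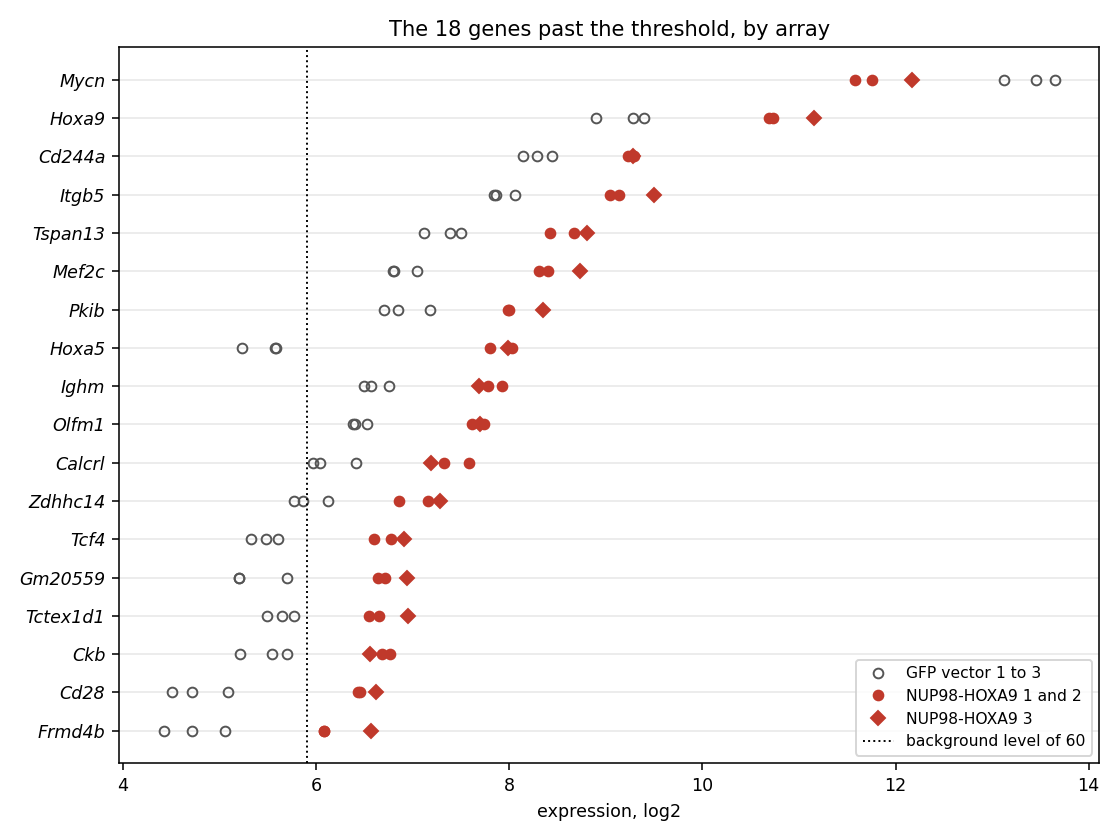
Log2 level of each of the 18 called genes on each of the 3 GFP and 3 NUP98-HOXA9 arrays, 1 point per array, with the background level of 5.91 marked. The genes were chosen on these same arrays. No gene has overlapping groups, and Mycn is the only gene with the NUP98-HOXA9 arrays below the GFP arrays.

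The Hoxa genes come first, since the oncogene carries the homeodomain of one of them. Hoxa5 encodes a homeodomain factor from the same cluster as Hoxa9. It stood at 5.57, 5.23 and 5.58 on the GFP arrays and at 8.03, 7.80 and 7.99 with NUP98-HOXA9. It was under the background level on all vector arrays and well above it on all oncogene arrays. It rose by 2.48 (SE 0.15, adjusted p = 0.00111 in limma), at least 4.08-fold. The highest adjusted p with an array left out was 0.0212. Hoxa9 itself stood at 9.40, 8.90 and 9.28 with GFP and at 10.69, 10.73 and 11.16 with the oncogene. It was thus already expressed in vector GMP, and it rose 3.18-fold (log2 1.67, SE 0.19, adjusted p = 0.0272). Its second probe set lay 0.76 higher (SE 0.19) and did not pass (adjusted p = 0.269). Whether the Hoxa9 probes also read the HOXA9 portion of the vector was not tested.

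The rest of the cluster was low or moved little. Hoxa7 stood at 6.95, 6.81 and 6.89 with GFP and at 7.16, 7.25 and 7.37 with NUP98-HOXA9, a difference of 0.38 that did not pass (SE 0.13, adjusted p = 0.368). The other 6 of the 9 cluster genes on the array, Hoxa2, Hoxa3, Hoxa4, Hoxa10, Hoxa11 and Hoxa13, were not tested because their values lay under 60. Of 22 genes of the Hoxb, Hoxc and Hoxd clusters on the array 2 were tested, Hoxb3 (−0.19, adjusted p = 0.727) and Hoxb4 (0.11, adjusted p = 0.801). Meis1, the cofactor that accelerates HOXA9 leukemias in mice, read 4.17, 3.79 and 4.31 with GFP and 5.17, 4.66 and 5.44 with the oncogene. Its groups did not overlap, but every value was under background and it was not tested. Nup98, the other partner gene, lay at 6.48, 6.43 and 6.50 with GFP and at 6.27, 6.34 and 6.50 with the fusion (−0.10, SE 0.13, adjusted p = 0.791).

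The 250 bases before the start of Hoxa5 and Hoxa9, the called homeobox genes, and of Mycn, the called gene that was lower, are shown for reference, from RefSeq on GRCm38.p6. All 3 lie on the minus strand, at chr6:52204588-52204837, chr6:52227371-52227620 and chr12:12941837-12942086, and are written 5′ to 3′ with capitals for the homeodomain core TAAT on either strand and for TTTATNG, a motif of the posterior HOX group.
Hoxa5: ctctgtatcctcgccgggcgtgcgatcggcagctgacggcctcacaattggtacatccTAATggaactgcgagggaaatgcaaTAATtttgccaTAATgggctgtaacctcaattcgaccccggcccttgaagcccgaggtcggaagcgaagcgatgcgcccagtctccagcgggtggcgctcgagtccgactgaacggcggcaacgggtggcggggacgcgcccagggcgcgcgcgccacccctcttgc
Hoxa9: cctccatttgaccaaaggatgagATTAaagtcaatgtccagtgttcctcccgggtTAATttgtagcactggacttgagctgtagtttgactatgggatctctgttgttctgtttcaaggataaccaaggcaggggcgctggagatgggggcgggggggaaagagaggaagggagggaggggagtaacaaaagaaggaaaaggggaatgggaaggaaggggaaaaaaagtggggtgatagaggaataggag
Mycn: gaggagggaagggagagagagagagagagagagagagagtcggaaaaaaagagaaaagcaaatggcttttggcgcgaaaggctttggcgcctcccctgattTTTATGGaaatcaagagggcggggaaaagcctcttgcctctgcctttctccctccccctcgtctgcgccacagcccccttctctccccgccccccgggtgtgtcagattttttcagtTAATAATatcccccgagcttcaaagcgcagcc
The window of Hoxa5 holds 3 matches to TAAT, that of Hoxa9 holds 2, and that of Mycn holds 2 with 1 match to TTTATNG. Of the 18 called genes 14 had at least 1 such window in the RefSeq table. These genes had 22 windows between them. TAAT occurred in 16 of the 22, against 54.9% of all 32851 windows, and TTTATNG in 3 of the 22 (Ckb, Frmd4b and Mycn), against 9.81%. The PBX and HOX motif TGATTNAT occurred in 3 of the 22, all of them windows of Gm20559, against 2.82%, and the MEIS motif TGACAG in 1 of the 22, that of Itgb5, against 15.9%. Both strands were searched, and a match describes letters, not binding.

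Among other transcription factors, Mef2c and Tcf4 rose. Mef2c, a MADS-box factor of early lymphoid and myeloid progenitors, stood at 6.81, 7.04 and 6.80 with GFP and at 8.31, 8.40 and 8.73 with NUP98-HOXA9. It rose 3.04-fold (log2 1.60, SE 0.16, adjusted p = 0.0178 in limma). A second tested Mef2c probe set lay 1.07 higher without passing (adjusted p = 0.363), and 0.60 higher without NHA9 3. The other 4 tested genes of the list of Mef2 factors and class IIa deacetylases were not called, Mef2d at 0.29 (adjusted p = 0.541) and Hdac5 at 0.29 (0.528) among them. Tcf4, an E-protein needed for plasmacytoid dendritic cells, stood at 5.48, 5.61 and 5.33 with GFP and at 6.60, 6.78 and 6.91 with the oncogene. Its rise was at least 1.81-fold (1.29 on the log2 scale, SE 0.15, adjusted p = 0.0272). A second Tcf4 probe set also passed (1.25, adjusted p = 0.0283), and 5 of its 6 probe sets lay between 1.11 and 1.29 higher.

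Mycn was the only called gene that fell. The probe set stood at 13.45, 13.12 and 13.65 with GFP and at 11.58, 11.76 and 12.17 with NUP98-HOXA9, 2.97-fold lower (log2 −1.57, SE 0.20, adjusted p = 0.0283). N-Myc is a growth-promoting member of the Myc family of transcription factors. Its other 2 probe sets were under 60 on all 6 arrays, at 3.30 to 5.21, and whether the bright one reads another RNA was not tested. Myc, the family member usual in dividing blood cells, read 8.87, 8.32 and 8.75 with GFP and 9.15, 8.97 and 8.96 with the oncogene (0.38, SE 0.17, adjusted p = 0.492). Of the 8 tested members of the Myc family and Max network, 4 lay higher and 4 lower. The Myc antagonists Mxd4 and Mnt lay 0.59 (adjusted p = 0.358) and 0.42 (0.408) higher without passing.

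Several called genes encode receptors and other surface proteins. Cd28, the costimulatory receptor of T cells, stood at 5.09, 4.51 and 4.72 with GFP and at 6.45, 6.43 and 6.62 with NUP98-HOXA9. On this called probe set it was under background in every vector sample and a little above it in every oncogene sample. The rise was at least 1.51-fold (1.73 on the log2 scale, SE 0.17, adjusted p = 0.0178). A second Cd28 probe set read 3.98, 3.85 and 3.76 with GFP and 5.20, 5.27 and 6.91 with NUP98-HOXA9. Only NHA9 3 was over background on it, so it was not tested. Cd28 was 1 of the 4 tested genes of the B7 and CD28 costimulation list, and the other three were not called. Cd244a, the SLAM-family receptor 2B4 of natural killer cells and some progenitors, stood at 8.44, 8.14 and 8.29 with GFP and at 9.29, 9.23 and 9.28 with the oncogene. The oncogene arrays were nearly level on this probe set, and it rose 1.97-fold (0.98, SE 0.13, adjusted p = 0.0388). On a second Cd244a probe set they were not level, at 7.15, 7.01 and 8.13. That one lay 0.88 higher without passing (SE 0.29, adjusted p = 0.358), and 0.53 higher without NHA9 3 (adjusted p = 0.128). Calcrl, the receptor subunit for adrenomedullin and calcitonin gene-related peptide, stood at 6.41, 6.04 and 5.97 and at 7.32, 7.58 and 7.19. It rose 2.33-fold (1.22, SE 0.17, adjusted p = 0.0415), while its other probe set was under background.

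Itgb5, the integrin beta 5 chain that pairs with alpha V and binds vitronectin, stood at 7.84, 7.86 and 8.06 with GFP and at 9.14, 9.04 and 9.50 with NUP98-HOXA9. It rose 2.48-fold (1.31, SE 0.16, adjusted p = 0.0283), and its 4 probe sets lay 0.82 to 1.31 higher. Of the 9 tested integrin genes 8 lay higher, though Itgb5 alone was called. The alpha V chain Itgav lay 0.24 higher without passing (adjusted p = 0.598). Tspan13, a tetraspanin of the cell membrane, stood at 7.39, 7.12 and 7.50 and at 8.42, 8.67 and 8.80, and rose 2.46-fold (1.30, SE 0.16, adjusted p = 0.0283). A second Tspan13 probe set lay 0.74 higher without passing (adjusted p = 0.327). Ighm, the constant region of the IgM heavy chain, stood at 6.50, 6.57 and 6.75 and at 7.93, 7.78 and 7.69, and rose 2.28-fold (1.19, SE 0.14, adjusted p = 0.0283). Ighm has 11 probe sets on the array, and they disagreed: another bright one lay 0.95 higher without passing (adjusted p = 0.131) and one lay at −0.14 (0.774). The defining B cell markers Cd79a, Pax5, Ebf1 and Rag1 were under 60 on all 6 arrays.

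The remaining called genes have varied roles. Olfm1, a secreted glycoprotein best known from neurons, stood at 6.38, 6.53 and 6.40 with GFP and at 7.61, 7.74 and 7.70 with NUP98-HOXA9, and rose 2.37-fold (1.24, SE 0.13, adjusted p = 0.0178). Ckb, the brain-type creatine kinase, stood at 5.54, 5.21 and 5.70 and at 6.76, 6.68 and 6.56, and rose at least 1.69-fold (1.18, SE 0.16, adjusted p = 0.0388). The groups did not overlap for either gene. A second tested Olfm1 probe set lay 1.16 higher without passing (adjusted p = 0.273), with NHA9 3 under background at 5.79. Pkib, an inhibitor of cAMP-dependent protein kinase, stood at 6.85, 7.18 and 6.70 and at 8.00, 7.99 and 8.35, and rose 2.30-fold (1.20, SE 0.17, adjusted p = 0.0468). Frmd4b, a FERM-domain scaffold protein, stood at 4.72, 5.06 and 4.42 and at 6.08, 6.08 and 6.57, and rose at least 1.26-fold (1.51, SE 0.21, adjusted p = 0.0388). Its other 3 probe sets were under background on all 6 arrays, so the call rests on 1 of 4. Zdhhc14, a protein palmitoyltransferase, stood at 6.12, 5.77 and 5.86 and at 7.16, 6.86 and 7.28, and rose 2.27-fold (1.18, SE 0.16, adjusted p = 0.0410). GFP 2 and GFP 3 were under background, so this fold rests partly on values below it. The Zdhhc14 probe sets also disagreed, with 2 further ones 1.12 and 1.13 higher and 2 others 0.21 and 0.23 higher, none of these past the threshold. Tctex1d1, of the dynein light chain family, stood at 5.77, 5.49 and 5.65 and at 6.55, 6.65 and 6.95, and rose at least 1.76-fold (1.09, SE 0.15, adjusted p = 0.0442). The predicted gene Gm20559 stood at 5.20, 5.20 and 5.70 and at 6.64, 6.71 and 6.94, and rose at least 1.81-fold (1.39, SE 0.18, adjusted p = 0.0283). A second Gm20559 probe set, over 60 on all 6 arrays, lay 0.81 higher without passing (adjusted p = 0.141).

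Some larger differences did not pass, with larger standard errors. Gpnmb, a membrane glycoprotein of macrophages and osteoclasts, read 8.42, 9.83 and 7.78 with GFP and 10.72, 11.33 and 11.11 with NUP98-HOXA9 (2.38, SE 0.45, adjusted p = 0.120). The groups did not overlap, but GFP 2 was well above the other vector arrays, and without it the gene passed (2.96, adjusted p = 0.0391). The chemokine gene Ccl3 read 6.40, 4.99 and 6.07 against 7.53, 8.52 and 8.20 (2.26, SE 0.37, adjusted p = 0.0805). Clec4n, the fungal receptor dectin-2, read 9.24, 7.86 and 8.16 against 9.76, 10.43 and 10.90 (1.94, SE 0.38, adjusted p = 0.134). The other genes among the 10 largest of this kind were Myl10 (1.85), Tsc22d1 (1.56), the thrombin receptor F2r (1.55), the MHC class II chain H2-Aa (1.54), the kynurenine enzyme Kmo (1.49), Sash1 (1.32) and platelet factor 4, Pf4 (1.28). Their adjusted p ran from 0.0597 to 0.289. Without NHA9 3, Ccl3, Myl10 and Tsc22d1 passed (adjusted p = 0.0432, 0.0422 and 0.0347).

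On the lower side, Tfrc, the transferrin receptor through which dividing cells take up iron, read 10.34, 10.64 and 10.05 with GFP and 8.74, 8.45 and 9.58 with NUP98-HOXA9 (−1.42, SE 0.29, adjusted p = 0.137). NHA9 3 lay between the other oncogene arrays and the vector arrays. Without it Tfrc fell by 1.75 (adjusted p = 0.00912), and with the file name tag as a factor it also passed (adjusted p = 0.000434). Slc40a1, the iron exporter ferroportin, read 9.20, 8.98 and 8.72 against 8.30, 7.92 and 8.21 (−0.82, SE 0.17, adjusted p = 0.155). The pregnancy-specific glycoprotein gene Psg28 read 7.14, 8.77 and 8.44 against 6.96, 5.87 and 5.81 (−1.90, SE 0.44, adjusted p = 0.223). It is a member of a multigene family, so its probe set may read relatives. Hdc, the histamine-making enzyme of basophils and mast cells, read 7.41, 7.54 and 7.76 against 6.99, 6.07 and 6.93 (−0.90, adjusted p = 0.288). Gm9222 (−1.60), Oas1e (−0.81), Sfrp1 (−0.78), Cited2 (−0.77), Srsf6 (−0.75) and Csgalnact2 (−0.73) complete the 10, and of these Cited2 and Srsf6 passed without NHA9 3 (adjusted p = 0.0477 and 0.0221).

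Gene lists were then read by counts, each gene by its brightest probe set. Over all 6919 genes so read, the median difference was 0.06, 61.3% lay above 0, 9.09% were higher and 2.01% lower at an unadjusted p under 0.05, and 15.0% and 3.73% were higher and lower with groups that did not overlap. The median over all genes was 0.05 for NHA9 1, 0.01 for NHA9 2 and 0.19 for NHA9 3 against the GFP mean.

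Genes of the primary granules, which GMP and promyelocytes fill with antimicrobial enzymes, lay lower. None of the 15 tested members was called, but 14 lay below 0, with a median of −0.32. Without overlap 8 were lower (53.3%, against 3.73% of all genes), and 7 were lower at an unadjusted p under 0.05 (46.7%, against 2.01%). The median was −0.25, −0.35 and −0.26 for NHA9 1, NHA9 2 and NHA9 3, so all 3 oncogene arrays shared the shift. Ms4a3, Nkg7 and Serpinb1a had the smallest unadjusted p of the list, and values of the granule enzymes are not shown here. Ms4a3, a marker of GMP and their progeny, read 12.02, 12.03 and 11.97 with GFP and 11.53, 11.00 and 11.64 with the oncogene (−0.62, SE 0.18, adjusted p = 0.306). The granule protein gene Nkg7 read 10.93, 10.80 and 10.72 against 10.34, 10.09 and 10.48 (−0.52, adjusted p = 0.298), and the protease inhibitor Serpinb1a 11.92, 11.87 and 11.87 against 11.64, 11.54 and 11.24 (−0.42, adjusted p = 0.388). Gfi1, a repressor needed for neutrophil formation, lay 0.46 lower (adjusted p = 0.371). Genes of secondary granules and later neutrophil stages, in contrast, had 9 of 18 members on each side and a median of 0.01.

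Monocyte and macrophage genes lay higher: 20 of 24 tested were above 0 and none was called, with a median of 0.29. Without overlap 8 were higher (33.3%, against 15.0% of all genes). At an unadjusted p under 0.05 in limma 8 were higher (33.3%, against 9.09%). The median was 0.16 and 0.13 for NHA9 1 and NHA9 2 and 0.55 for NHA9 3. Each against the other GFP arrays, it was 0.07 for GFP 1, 0.12 for GFP 2 and −0.23 for GFP 3. That spread was as wide as the shifts of NHA9 1 and NHA9 2. Cd68, a lysosomal glycoprotein of macrophages, read 9.46, 9.46 and 9.67 with GFP and 10.25, 10.33 and 10.69 with NUP98-HOXA9 (0.89, SE 0.16, adjusted p = 0.0953, and 0.0347 without NHA9 3). The lipid carrier Apoe read 11.63, 11.51 and 11.27 against 12.18, 12.14 and 12.66 (0.86, adjusted p = 0.158, and 0.0499 without NHA9 3). Dendritic cell and MHC class II genes had 7 of 8 tested above 0, 4 of them without overlap, and a median of 0.52. None of these was called by limma, and 4 had an unadjusted p under 0.05. H2-Aa read 5.84, 6.88 and 5.15 against 8.12, 7.33 and 7.04 (adjusted p = 0.289), and H2-DMa, which loads peptide onto class II molecules, 7.52, 7.37 and 8.05 against 8.36, 8.13 and 8.83 (0.80, adjusted p = 0.305). Irf8, the factor that steers progenitors to monocytes and dendritic cells, lay 0.84 higher (8.92, 8.57 and 9.40 against 9.84, 9.46 and 10.10, adjusted p = 0.298).

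Summed on the linear scale, the monocyte and macrophage genes ran from 39200 to 41300 with GFP and from 46900 to 56300 with the oncogene, and the dendritic and class II genes from 1240 to 1330 and from 1600 to 1950. Mast cell, basophil and eosinophil markers summed to 9910 to 10400 with GFP and 8190 to 8750 with NUP98-HOXA9. Most of that sum is Srgn, the serglycin core protein of granules in many blood cells, which read 13.22, 13.23 and 13.13 with GFP and 12.84, 12.84 and 12.93 with NUP98-HOXA9 (−0.32, adjusted p = 0.424). The 7 tested members of the list had a median of −0.03, with 3 above 0, Ccl3 among them, and 4 below. Markers of GMP identity overlapped, at 52000 to 57000 and 44400 to 53400, and their 13 tested members had a median of −0.04. All 13 of these defining markers were over 60 on at least 1 array. Of the dendritic list Itgax, Zbtb46, Ciita, Batf3 and 5 others were under 60 on every array, as were Mrc1, Cd163, Mertk, Marco, Maf and Cd36 of the macrophage list. Of the lineages outside, Gata1 and Klf1 (red cell), Gp9 and Vwf (platelet), Rag1 and Pax5 (lymphoid) and Fcer1a and Cma1 (mast cell) were under 60 on every array. Other members of those lists were not: 8 of 19 megakaryocyte and erythroid, 8 of 22 lymphoid and 7 of 14 mast cell, basophil and eosinophil markers were over 60 on at least 1 array. The platelet gene Pf4 read 8.52, 8.93 and 7.90 with GFP and 10.07, 9.27 and 9.84 with NUP98-HOXA9 (1.28, adjusted p = 0.199). Itga2b, the platelet integrin chain, read 6.06, 6.40 and 6.20 against 6.88, 6.60 and 6.92 (0.58, adjusted p = 0.273). Both were over 60 on all 6 arrays, without overlap of the groups. The part of other cell types in the results was not tested.

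Stem cell genes did not move as a group: 9 of 13 tested lay above 0 (69.2%, against 61.3% of all genes), and the median was 0.12. Higher without overlap were 2 (15.4%, against 15.0%), and 2 were higher at an unadjusted p under 0.05 (15.4%, against 9.09%). None was called by limma. Cd34, a surface protein of progenitors, came nearest, at 7.40, 7.23 and 7.39 with GFP and 8.29, 8.10 and 8.21 with the oncogene (0.86, SE 0.13, adjusted p = 0.0597, and 0.0225 without NHA9 3). Ptger4, a prostaglandin E2 receptor, lay 0.85 higher (adjusted p = 0.131). Ribosome biogenesis and Myc target genes had 30 of 36 above 0 and 9 without overlap, with a median of 0.14. No member was called by limma, and 6 had an unadjusted p under 0.05. NF-kB and inflammatory genes had 13 of 16 above 0 (81.2%), with a median of 0.25 and no call. Without overlap 5 were higher (31.2%, against 15.0% of all genes), and 3 were higher at an unadjusted p under 0.05 (18.8%, against 9.09%). Bcl3, a nuclear partner of NF-kB, read 6.22, 6.38 and 6.61 against 7.40, 7.25 and 7.19 (0.88, SE 0.15, adjusted p = 0.0829, and 0.0296 without NHA9 3).

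Cholesterol biosynthesis genes had 13 of 19 below 0, with a median of −0.28 and no call by limma, but NHA9 3 did not share the shift. Without overlap 4 were lower (21.1%, against 3.73% of all genes), and 4 were lower at an unadjusted p under 0.05 (21.1%, against 2.01%). The median was −0.15 and −0.34 for NHA9 1 and NHA9 2 and 0.06 for NHA9 3, and it ran from −0.42 to −0.12 with an array left out or quantile normalization. The vector arrays spread as widely on this list. Each against the other GFP arrays, the median was −0.18 for GFP 1, −0.13 for GFP 2 and 0.32 for GFP 3. Genes of S phase (38 tested, 25 below 0, median −0.10) and of mitosis (37 tested, 20 below 0, median −0.02) gave no call in limma. At an unadjusted p under 0.05, 2 S phase genes were lower (5.26%, against 2.01% of all genes) and no mitosis gene was lower or higher. Nuclear pore protein genes, of interest because the fusion carries part of one, had 12 of 23 above 0 and a median of 0.01.

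**Figure D3:**
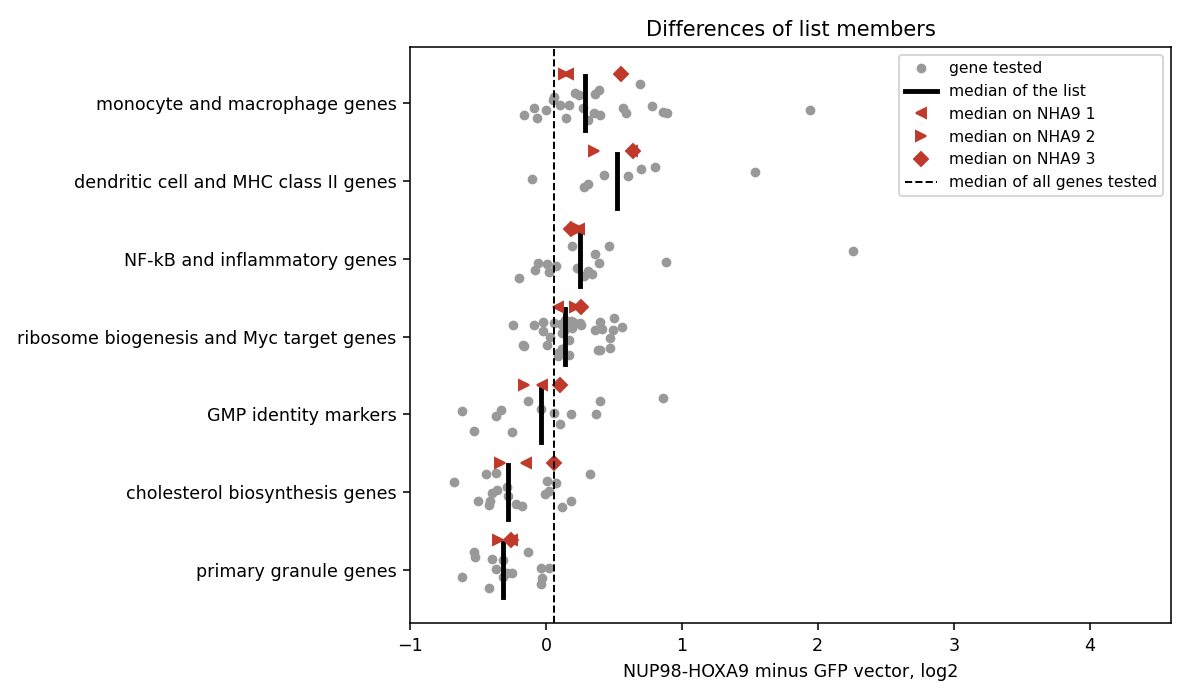
Log2 difference, NUP98-HOXA9 minus GFP, of every tested gene of selected gene lists, 1 dot per gene, with the median of each list, its median on each of the 3 oncogene arrays against the GFP mean, and the median of all genes tested. Primary granule genes lie mostly below 0 (median −0.32), and monocyte and macrophage (0.29) and dendritic and MHC class II genes (0.52) mostly above.

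The next question was which of the 18 genes differed between NUP98-HOXA9 and the other oncogenes. The direct contrast of oncogene groups was used, in 1 fit to the 14 transduced arrays, since the vector arrays cancel in it. The NUP98-HOXA9 arrays that chose the genes enter it again, so only the other oncogene's arrays are new evidence. Against MOZ-TIF2, 840 of 11171 probe sets passed (7.52%), 447 higher with NUP98-HOXA9 (4.00%) and 393 lower (3.52%). The count was 328 without MT2 1, 487 without MT2 4, 239 without NHA9 1 and 428 without NHA9 2. Against AML1-ETO, 823 of 11377 passed (7.23%), 298 higher (2.62%) and 525 lower (4.61%), and after quantile normalization 464 higher and 519 lower. That count was 402 without NHA9 1, 440 without NHA9 2, 1390 without AE 1 and 498 without AE 3.

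Against MOZ-TIF2, 10 of the 17 raised genes were higher with NUP98-HOXA9 (5.06% of 6992 genes tested were called higher and 4.28% lower), and against AML1-ETO 8 of 17 were (3.29% of 7112 higher and 5.96% lower). Hoxa5, Cd28, Itgb5, Ckb, Cd244a and Pkib were called in both. All 17 lay above 0 against MOZ-TIF2, and 13 did against AML1-ETO. The other 4 were higher on average with AML1-ETO: Tctex1d1 (−0.81), Tspan13 (−0.69), Zdhhc14 (−0.35) and Tcf4 (−0.33). None of these was called lower, but without AE 1, 2 of the 17 were. Hoxa5 stood at 5.70 ± 0.41 (SD, n = 4) with MOZ-TIF2 and 5.82 ± 0.28 (n = 4) with AML1-ETO, against 7.94 ± 0.12 (n = 3) with NUP98-HOXA9. The differences were 2.24 (SE 0.21, adjusted p = 0.000193 in limma) and 2.12 (SE 0.21, adjusted p = 0.000104). The MOZ-TIF2 and AML1-ETO means lay close to that of GFP, 5.46 ± 0.20 (n = 3). For Hoxa9, MOZ-TIF2 GMP stood at 10.69 ± 0.46 and AML1-ETO GMP at 8.76 ± 0.36, against 10.86 ± 0.26 with NUP98-HOXA9. It was 2.10 higher than with AML1-ETO (adjusted p = 0.000190), and its difference from MOZ-TIF2 was 0.17 (SE 0.24, adjusted p = 0.741).

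On its called probe set Cd28 was under background with MOZ-TIF2 (4.58 ± 0.24) and AML1-ETO (4.78 ± 0.59). Cd244a stood at 9.27 ± 0.03 with NUP98-HOXA9, 8.29 ± 0.15 with GFP, 6.61 ± 1.61 with MOZ-TIF2 and 6.43 ± 0.70 with AML1-ETO, so the other oncogene groups lay below the vector for it. Itgb5 likewise stood at 9.23 ± 0.24, 7.92 ± 0.12, 7.20 ± 0.31 and 7.51 ± 0.49 in the same order. The mean of Mycn was 13.41 ± 0.27 with GFP, 11.84 ± 0.30 with NUP98-HOXA9, 10.57 ± 0.60 with MOZ-TIF2 and 12.56 ± 0.32 with AML1-ETO, and with NUP98-HOXA9 it was 1.26 higher than with MOZ-TIF2 (SE 0.28, adjusted p = 0.0149). Tcf4, Ighm, Calcrl, Frmd4b and Tctex1d1 were called in neither contrast.

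Among all genes whose groups did not overlap, the largest excess over MOZ-TIF2 was in Arg1, the arginase of myeloid cells (9.92 ± 0.61 against 5.88 ± 1.76, difference 4.04, SE 0.71, adjusted p = 0.00474). It was followed by Fn1 (2.76), Myl10 (2.70), Cd244a (2.66), Il1r2 (2.26), Hoxa5 (2.24), Id3 (1.97) and Cd28 (1.92). Beside GFP, Arg1 lay 1.43 higher with NUP98-HOXA9 (adjusted p = 0.349) and 2.62 lower with MOZ-TIF2, and Fn1, fibronectin, 0.42 higher and 2.34 lower. The largest deficits were in the progenitor factor Sox4 (5.78 ± 0.74 against 8.54 ± 0.48, difference −2.76, adjusted p = 0.000970), Rgs18 (−2.10), Igf2bp3 (−1.53), Ankrd28 (−1.50), Afp (−1.50), Ncoa4 (−1.49), Parp8 (−1.46) and Hmgn3 (−1.41). Rgs18, a brake on G protein signalling, stood at 7.64 ± 0.06 with GFP, 7.75 ± 0.12 with NUP98-HOXA9 and 9.85 ± 0.33 with MOZ-TIF2.

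Against AML1-ETO the largest excess after Cd244a (2.84) was in Apoc2, an apolipoprotein gene (9.18 ± 0.42 against 6.62 ± 0.49, difference 2.56, SE 0.29, adjusted p = 0.000148), then Ifitm6 (2.16), Itgb7 (2.12), Hoxa5 (2.12), Hoxa9 (2.10), Arhgef18 (2.07) and Pkib (2.01). The deficits were larger. Serpinb2, a protease inhibitor of activated macrophages, stood at 3.33 ± 0.51 with NUP98-HOXA9 and 3.12 with GFP, both under background, against 9.00 ± 1.55 with AML1-ETO (−5.67, SE 0.59, adjusted p = 0.000104). The neutrophil chemokine Cxcl2 stood at 5.10 ± 0.87 and 5.15 with GFP, also under background, against 9.64 ± 1.10 (−4.55, SE 0.61, adjusted p = 0.000496). Ctla2a (−4.04), Ctla2b (−3.56), Ppbp (−2.88), Itm2a (−2.74), Gpx3 (−2.57) and Hdc (−2.45) followed. Ctla2a and Ctla2b are close relatives whose probes may read each other.

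**Figure D4:**
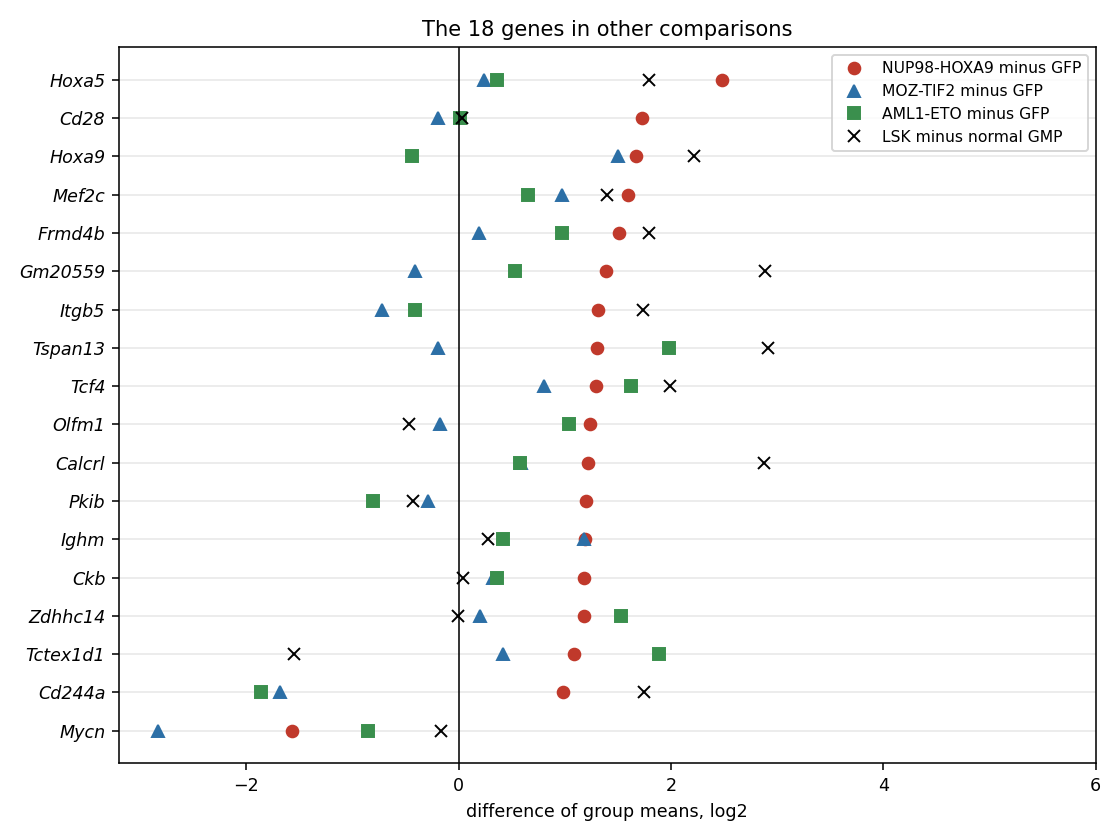
Difference of group means on the log2 scale for the 18 called genes: each oncogene minus GFP, which share the 3 vector arrays, and normal LSK minus normal GMP, from separate arrays. Hoxa5, Cd28 and Itgb5 stand apart from MOZ-TIF2 and AML1-ETO, and Cd244a lies above 0 with NUP98-HOXA9 and below 0 with the other oncogenes.

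The study also set early changes beside the difference between LSK cells and GMP, because self-renewal is lost between them. These 7 arrays share none with the NUP98-HOXA9 comparison. Of 11452 probe sets, 1734 passed (15.1%), 1160 higher in LSK (10.1%) and 574 lower (5.01%). After quantile normalization the split was 1420 higher and 1392 lower. The count was 787, 878 and 1096 without LSK 1, LSK 2 and LSK 3, 965 without GMP 1 and 2811 without GMP 2.

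Of the 17 genes raised by NUP98-HOXA9, 13 were tested there, 9 were called higher in LSK (12.2% of 7148 genes were, and 5.97% lower) and none lower. Their median difference was 1.79, against 0.06 over all genes. The 9 were Hoxa5 (1.79), Mef2c (1.40), Tcf4 (1.99), Hoxa9 (2.22), Itgb5 (1.73), Tspan13 (2.92), Gm20559 (2.89), Cd244a (1.75) and Calcrl (2.88). With an array left out, 6 to 10 were called, 6 without any 1 of the 3 LSK arrays. Without GMP 2, 1 of the 13 was called lower. Cd28, Olfm1, Ckb and Tctex1d1 were too low in both groups to be tested, so the 13 leave out low genes. Of these, Tctex1d1 lay lower in LSK (3.41 ± 0.33) than in normal GMP (4.96 ± 0.34). With no filter on low values all 17 were tested, 9 were called higher and 1 lower, and 13 lay above 0. The median was then 1.73, against −0.06 over all probe sets. For Hoxa5 the NUP98-HOXA9 level of 7.94 ± 0.12 lay beside 7.87 ± 0.21 (n = 3) in LSK and 6.08 ± 0.12 (n = 4) in normal GMP. Hoxa9 reached 11.48 ± 0.20 in LSK, above the 10.86 ± 0.26 with the oncogene, and Mef2c 9.62 ± 0.16, above 8.48 ± 0.22. Those levels were not tested between the transduced and fresh cells.

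Infected and fresh GMP were also unlike for some of these genes. Mef2c stood at 6.88 ± 0.14 in vector GMP and 8.22 ± 0.45 in fresh GMP, and Mycn at 13.41 ± 0.27 and 6.96 ± 0.59. Ighm stood at 6.61 in vector GMP, 7.80 with NUP98-HOXA9 and 9.32 ± 0.45 in fresh GMP. In the same order Frmd4b stood at 4.74, 6.24 and 6.29 ± 1.34, and the uncalled gene Cd34 at 7.34, 8.20 and 9.65 ± 0.43. Others were lower in fresh than in vector GMP, such as Itgb5 (5.14 ± 0.87 against 7.92) and Cd244a (5.31 ± 0.77 against 8.29). These differences between fresh and infected cells were not tested here. Cd28, Ckb and Olfm1 were low in both fresh populations: Cd28 at 4.06 ± 0.16 in LSK and 4.03 ± 0.12 in GMP, Ckb at 5.11 ± 0.30 and 5.07 ± 0.43, and Olfm1 at 4.27 ± 0.01 and 4.74 ± 0.37, all under background. Meis1 was high in LSK (9.28) and at 5.09 with NUP98-HOXA9.

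In leukemic GMP from the MOZ-TIF2 model Hoxa9 stood at 11.95 ± 0.12 (n = 3) and Hoxa5 at 7.72 ± 1.14, while Cd28 (3.97 ± 0.13) and Ckb (4.92 ± 0.13) were under background. Pkib (9.00 ± 1.14) and Tctex1d1 (9.09 ± 0.72) were higher there on average than with NUP98-HOXA9 (8.11 ± 0.20 and 6.72 ± 0.21), and Cd244a (4.78 ± 1.43) was lower than 9.27 ± 0.03. These differences were not tested.

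**Figure D5:**
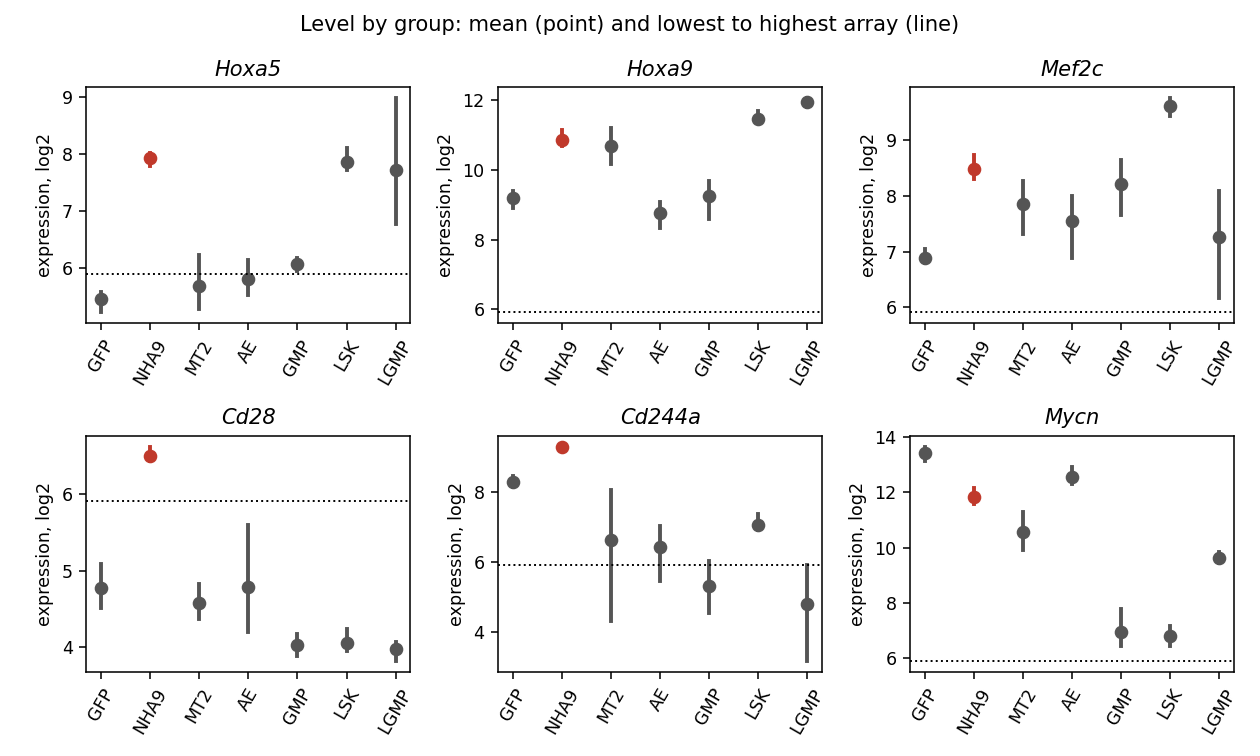
Log2 level of 6 genes in each of the 7 groups, with the mean as a point, the lowest to highest array as a line and the background level of 5.91 dotted. MT2 is MOZ-TIF2, AE is AML1-ETO and LGMP is leukemic GMP. Hoxa5 is above background on all 3 NUP98-HOXA9 arrays (7.80 to 8.03) and under it on all 3 GFP arrays, and Mycn is highest in the vector group.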

How the data were processed

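Messenger RNA of 24 samples in 7 groups was measured on Affymetrix 430A 2.0 arrays. The authors deposited log2 expression values made with GCRMA 2.4.1 from MAS5 cell files, per the submitters' processing notes and the design text, which also says that outlier arrays were removed. Deposited values spanned 1.72 to 14.39, and array medians 5.63 to 5.76, and they were used as they are. The number of arrays limits the precision.

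Of 22690 probe sets 64 controls were left out, and 20380 had 1 gene symbol, 691 several and 1555 none in the platform annotation. A RefSeq gene table matched 20351 and changed 0 symbols, and 12393 genes were named. Groups came from the sample titles. Differences were fitted with limma 3.58.1 in R 4.3.3 (lmFit, eBayes, Benjamini-Hochberg, threshold 0.05) on probe sets whose linear value exceeded 60 on 2 or more arrays of either compared group, and the code was tested on simulated data. NUP98-HOXA9 against GFP used those 6 arrays, contrasts between oncogenes the 14 transduced arrays, and LSK against GMP those 7 arrays. A fold against a group with every array under 60 is a bound, the brighter mean over 60. The present calls that the design text mentions were not used here.

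A gene was named when any of its probe sets passed. Named with values only were the 10 largest differences each way among genes with an unadjusted p under 0.05, no overlap of the groups and a mean over 60 in the higher group, up to 3 members of each of 37 gene lists by smallest p, all Hoxa genes, and genes tied to the fusion such as Nup98, Meis1, Mycn and Myc. Not all genes that the rule names are reported here. For the oncogene contrasts these were the 8 largest each way without overlap. Uncalled genes were read by their brightest probe set on average over all 24 arrays. Other genes in the text were chosen after their values were seen. The members, the gene lists and the tests were chosen with earlier results of these data known. Same-numbered NUP98-HOXA9 and GFP arrays had correlations of their deviations of −0.1642, 0.1077 and 0.0745, so the numbers were not taken as pairs. Alternatives were arrays left out, blocks for replicate number and file name prefix, the file name tag as a factor, quantile normalization, other filters, an intensity trend, array weights, the Welch test of the design text, a shared spread and the mean of a gene's probe sets. Nothing in the labels says what the file name tag or prefix stands for.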

Additional observations from a re-analysis of the deposited data

Results flagged for a closer look

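The change beside GFP differed from that under MOZ-TIF2 for 11 of the 18 called genes, by limma's direct contrast of the oncogene groups. Of all 6992 genes tested, 5.06% were called higher and 4.28% lower. The 18 genes were chosen on the same NUP98-HOXA9 arrays, so only the other oncogene's arrays are new in this contrast. NUP98-HOXA9 minus MOZ-TIF2 was 2.24 for Hoxa5, 1.92 for Cd28, 1.42 for Olfm1 and 2.03 for Itgb5 on the log2 scale. It was 1.49 for Tspan13, 1.80 for Gm20559, 0.87 for Ckb, 2.66 for Cd244a, 0.98 for Zdhhc14 and 1.49 for Pkib. For Mycn, the gene that fell, it was 1.26, its NUP98-HOXA9 level lying between those of GFP and MOZ-TIF2.

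The change differed from that under AML1-ETO for 8 of the called genes. Of all 7112 genes tested, 3.29% were called higher and 5.96% lower. The NUP98-HOXA9 arrays that chose the genes entered here too. NUP98-HOXA9 minus AML1-ETO was 2.12 for Hoxa5, 0.95 for Mef2c, 1.72 for Cd28 and 2.10 for Hoxa9. It was 1.72 for Itgb5, 0.83 for Ckb, 2.84 for Cd244a and 2.01 for Pkib. For Cd244a the other oncogene groups lay below the vector and NUP98-HOXA9 above it.

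Single arrays lay far from the rest of their group in 3 of 54 groups of values of the called genes, and chance gives about 1 in 20. Zdhhc14 was at 7.04 on AE 1 against 7.55 to 7.63 on the other AML1-ETO arrays, and at 6.38 on GMP 1 against 6.66 to 6.72. Frmd4b was at 4.28 on GMP 2 against 6.83 to 7.12 on the other normal GMP arrays.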

How the results depend on the processing

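The 22 calls of NUP98-HOXA9 against GFP became 1 with the replicate number as a replicate block, 13 with the file name tag as a factor, 38 with the file name prefix as a block, 1025 within file names that start with a number (NHA9 1 and 2 against GFP 1 and 2), 2400 with array weights and 0 under the Welch test of the design text, which had 800 probe sets at an unadjusted p under 0.05. With 1 array left out they ran from 1 to 196. They numbered 17 after quantile normalization, 17 with no filter, 16 with the spread of the 14 transduced arrays, and 22 with a stricter filter or an intensity trend. The array weights ran from 0.157 for NHA9 3 to 4.92 for NHA9 1, and that fit stopped before its tolerance. The cause of these shifts was not tested. With 1 array left out, the calls ran from 239 to 1075 against MOZ-TIF2, from 402 to 1390 against AML1-ETO and from 787 to 2811 for LSK against GMP. Against AML1-ETO the calls were 311 with the tag as a factor and 301 with only the arrays of both groups, and for LSK against GMP they were 2812 after quantile normalization. With the replicate block the calls were 565, 776 and 2278. None of the 18 called genes changed sign under the alternatives of that comparison. Some uncalled genes did, such as Hoxb3, which ran from −0.35 to 0.07. Of the 18 called genes, 14 were called after quantile normalization, 13 with the mean of a gene's probe sets, 11 with no filter, 6 with the shared spread and 1 with the replicate block. Levels under 60 limit what can be said of 7 called genes to a bound.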

Other observations

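The 29 tested genes of the ATF4 and unfolded protein list had a median difference of 0.08, with 20 above 0, 9 below and none called by limma. At an unadjusted p under 0.05, 2 were higher (6.9%, against 9.09% of all genes) and 5 lower (17.2%, against 2.01%). Without overlap of the groups, 2 were higher (Nupr1 and Sesn2, 6.9%, against 15.0% of all genes) and 5 were lower (17.2%, against 3.73%). Those 5, picked after their values were seen, are given here. Hspa5, which encodes the chaperone BiP, read 13.17, 13.24 and 12.89 with GFP and 12.50, 12.77 and 12.43 with the oncogene (−0.53, adjusted p = 0.313). Hsp90b1 read 11.13, 11.25 and 10.90 against 10.56, 10.54 and 10.35 (−0.61, adjusted p = 0.235), and Creld2, Manf and Dnajb9 lay 0.38, 0.38 and 0.41 lower, each without overlap.

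Of 22 tested interferon response genes 15 lay above 0 (68.2%, against 61.3% of all genes) and 7 below, and none was called by limma. The median was 0.18, with 0.07, 0.33 and 0.27 for NHA9 1, NHA9 2 and NHA9 3 against the GFP mean. Higher without overlap were 8 (36.4%, against 15.0%), and 7 were higher at an unadjusted p under 0.05 (31.8%, against 9.09%). Ifih1, a sensor of double-stranded RNA, read 7.52, 7.51 and 7.47 against 7.92, 8.15 and 8.19 (0.59, adjusted p = 0.199). Gbp2 lay 0.62 higher (adjusted p = 0.240) and Irf9 0.57 higher (0.288). Among immediate early genes Jun read 7.24, 6.51 and 6.75 against 7.56, 7.80 and 7.66 (0.84, adjusted p = 0.222) and Atf3 lay 0.64 higher (0.269), while Fos read 9.65, 7.66 and 8.41 against 8.13, 7.55 and 7.42 with overlapping groups. P2ry14, a nucleotide-sugar receptor of early progenitors, read 4.93, 5.19 and 5.39 against 6.48, 6.55 and 5.79 (1.10, adjusted p = 0.141), and passed without NHA9 3 (0.0105). It was 2.74 higher in LSK than in normal GMP (SE 0.37, adjusted p = 0.00193), on arrays shared with neither group.

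Ldha, the lactate-making enzyme, read 11.67, 11.82 and 11.88 with GFP and 10.85, 10.73 and 11.88 with NUP98-HOXA9. NHA9 3 lay at the vector level, and without it the gene passed as lower (adjusted p = 0.0156). The replication clamp Pcna read 12.09, 12.39 and 11.98 against 11.45, 11.10 and 12.18, again with NHA9 3 at the vector level (adjusted p = 0.0439 without it).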
